A study of Mus musculus with 8 samples.

Results

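The immediate early genes Fos, Fosb, Jun, Junb, Egr1, Ier2, Dusp1, Nr4a1, Zfp36 and Atf3 were followed in spleen RNA of B6D2F1J recipients, a first-generation cross between C57BL/6 and DBA/2 mice, in a parent-into-F1 lupus model. The 10 genes were taken by their symbol in the platform annotation, as a set named with earlier results of these data known, from 16593 annotated genes on the array. Each of the 10 had 1 probe. The recipients were 10 weeks old by the labels and were engrafted from either of 2 donor strains, DBA or B10.D2, with 4 arrays for each. Spleens were taken on day 14 after engraftment, and the comparison asks how these genes differ with the strain of the donor. B10.D2 is a C57BL/10 strain that carries the H2 region of DBA/2. The labels do not say which donor cells were transferred, how many, or whether each array was a separate mouse, so the p-values rest on the spread among these arrays, which may in part be technical. No recipient without donor cells was analysed here, so each value is a contrast between 2 donor strains.

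Immediate early genes are transcribed within minutes of a stimulus, from transcription machinery that is already in the cell, and their short-lived mRNAs fall again soon after. Signals of antigen receptors, growth factors and stress pass through MAP kinases to serum response factor and CREB at their promoters. Fos, Fosb, Jun and Junb encode subunits of AP-1, a dimeric transcription factor, and Atf3 encodes a related factor of stress responses. Egr1 encodes a zinc finger transcription factor, Nr4a1 an orphan nuclear receptor induced by antigen receptor signals, and Ier2 a nuclear protein. Dusp1, a phosphatase that inactivates p38 and JNK kinases, and Zfp36 (tristetraprolin), which binds AU-rich elements and promotes mRNA decay, act as feedback brakes. These genes also respond to the handling of tissue. Per the labels' protocols the spleens were stabilised in RNAlater before homogenisation, while no label gives the time from death to stabilisation.

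The promoters of 4 of the genes are shown because Fos, Junb and Zfp36 moved together across the arrays and Dusp1 did not, as described further on. They are the 250 bases before the RefSeq start site in the mouse build GRCm38.p6, written 5′ to 3′ on the gene's strand: Fos at chr12:85473640-85473889 on the plus strand, and Junb at chr8:84978749-84978998, Zfp36 at chr7:28379229-28379478 and Dusp1 at chr17:26508473-26508722 on the minus strand. Capitals mark the cAMP response element TGACGTCA or its half-site TGACG in Fos, Junb and Dusp1, and in Zfp36 the EGR site GCGGGGGCG followed by the CArG box, which serum response factor binds.
Fos: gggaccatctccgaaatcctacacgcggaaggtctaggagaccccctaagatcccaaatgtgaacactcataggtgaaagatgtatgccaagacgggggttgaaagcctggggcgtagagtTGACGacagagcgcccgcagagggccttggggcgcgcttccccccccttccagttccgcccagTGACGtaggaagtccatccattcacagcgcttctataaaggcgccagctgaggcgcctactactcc
Junb: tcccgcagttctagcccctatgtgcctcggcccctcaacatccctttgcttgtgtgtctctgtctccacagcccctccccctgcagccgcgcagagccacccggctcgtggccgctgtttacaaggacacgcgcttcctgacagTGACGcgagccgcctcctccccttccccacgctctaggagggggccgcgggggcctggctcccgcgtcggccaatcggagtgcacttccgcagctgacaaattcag
Zfp36: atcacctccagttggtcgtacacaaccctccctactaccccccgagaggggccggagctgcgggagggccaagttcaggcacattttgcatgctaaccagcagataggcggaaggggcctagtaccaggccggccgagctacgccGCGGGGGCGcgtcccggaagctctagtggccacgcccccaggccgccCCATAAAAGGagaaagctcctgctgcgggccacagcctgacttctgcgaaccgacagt
Dusp1: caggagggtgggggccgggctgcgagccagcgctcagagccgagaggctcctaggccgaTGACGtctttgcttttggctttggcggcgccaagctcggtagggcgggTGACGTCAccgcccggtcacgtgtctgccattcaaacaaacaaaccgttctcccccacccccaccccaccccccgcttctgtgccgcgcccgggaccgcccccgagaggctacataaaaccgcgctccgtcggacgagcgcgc

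Windows from 250 bases before to 50 bases after the start site were searched on both strands for 8 of the 10 genes. Egr1, which also moved with Fos, Junb and Zfp36, and Ier2 were not searched. The half-site TGACG stood in 6 of the 8 and in 20.8% of all 32851 windows of the table; the full element, which holds the half-site on each strand, stood only in Dusp1 among the 8 and in 1.79% of all windows. The EGR site stood in 3 of the 8, Fosb, Nr4a1 and Zfp36, and in 2.91% of all windows. The CArG box stood in Zfp36 and in 1.63% of all windows, and the AP-1 site TGACTCA in 0 of the 8 and 5.2% of all windows. A match describes letters in this window and no more.

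Of the 10 genes, 6 were detected on all 8 arrays (Fos, Jun, Junb, Egr1, Dusp1 and Zfp36), where detection means a p under 0.05 against the negative controls of the same array. Fosb was detected on 1 array, B10.D2 donor replicate 3, where its raw intensity of 131.6 had a detection p of 0.0439. On the other 7 arrays Fosb read 103.5 to 131.5. Atf3 (107.9 to 133.3), Ier2 (99.7 to 120.4) and Nr4a1 (96.4 to 114.7) were not well above background on any array, with detection p of 0.0677 to 0.959. These 4 genes were not tested and no fold is given for them, since both groups lay at background. Each had 1 probe, and an undetected probe need not mean an absent mRNA. Between 12601 and 13320 probes were detected per array, and 12950 of 25697 probes were tested.

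**Figure D1:**
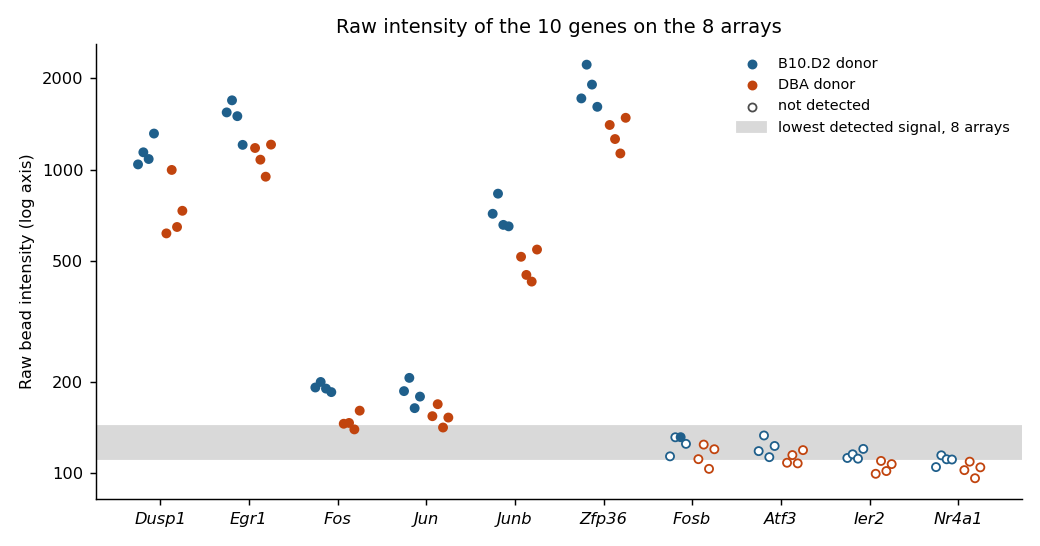
Raw bead intensity (log axis) of the 10 genes on the 4 B10.D2 donor arrays (blue) and the 4 DBA donor arrays (orange), before normalization. Open points were not detected, and the grey band spans the lowest detected signal of the 8 arrays; 6 genes were detected on all arrays and Fosb on 1.

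Before normalization the detected genes read dimmer in DBA donor spleens. Raw Fos intensity was 191.8, 200, 190.2 and 185.2 on B10.D2 donor arrays 1 to 4 and 145.7, 146.6, 139.6 and 160.9 on DBA donor arrays 1 to 4, so that the groups did not overlap. The same held for Junb, Dusp1 and Zfp36, which makes 4 of the 6 detected genes, against 44.4% of all tested probes. The arrays themselves differed in this way: the median of undetected probes was 102.6 to 111 on DBA donor arrays and 111.7 to 122.1 on B10.D2 donor arrays. Raw values are therefore shown as they were read, and the donors are compared on normalized log2 intensities, in which all arrays share 1 distribution.

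After normalization none of the 6 genes passed the test between donors. In limma 0 of 6 passed at an adjusted p under 0.05, against 0.0695% of all tested probes, and adjusted p-values spanned 0.295 to 0.969. Before adjustment 2 of 6 (Fos and Dusp1) had a p under 0.05, both with lower values in DBA donor spleens, against 14.5% of all tested probes in either direction and 7.39% lower. All 6 differences were below 0, as were those of 51% of tested probes, with a median of -0.17 on the log2 scale against -0.00456 over all tested probes. The groups of arrays overlapped for each of the 6, while they did not overlap for 8.37% of tested probes. In whole spleen RNA fewer cells of a type and less RNA per cell cannot be told apart.

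Fos, the AP-1 subunit for which these genes are best known, had the lowest difference of the 6. Its normalized log2 intensity was 6.55, 6.17, 6.39 and 6.13 on B10.D2 donor arrays 1 to 4 and 6.08, 5.71, 6.02 and 6.16 on DBA donor arrays 1 to 4. DBA donor replicate 4 lay just above B10.D2 donor replicate 4, which was the only overlap. The DBA donor mean was 5.99 ± 0.19 and the B10.D2 donor mean 6.31 ± 0.20 (SD, n = 4), which put Fos at -0.32 on the log2 scale (SE 0.13, 95% confidence interval -0.60 to -0.04, limma adjusted p = 0.295). The exact two-sided permutation p was 0.0571, where the smallest that 4 against 4 arrays allows is 0.0286. Without background correction Fos was at -0.14, and with median scaling at -0.46. In the authors' processed table Fos read 55.3 to 79.5 on B10.D2 donor arrays and 37.2 to 56.4 on DBA donor arrays.

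Jun and Junb, the AP-1 subunits that pair with Fos, did not pass either. Jun was 6.47, 6.25, 5.91 and 6.03 on B10.D2 donor arrays 1 to 4 and 6.29, 6.25, 6.08 and 5.96 on DBA donor arrays 1 to 4. The Jun groups covered nearly the same range, with a log2 difference of -0.02 (SE 0.13, 95% confidence interval -0.31 to 0.28, limma adjusted p = 0.969). Junb was 9.25, 9.10, 9.01 and 8.80 on B10.D2 donor arrays and 9.05, 8.53, 8.82 and 8.92 on DBA donor arrays. Its highest array was a B10.D2 donor array and its lowest a DBA donor array, and the log2 difference was -0.21 (SE 0.13, 95% confidence interval -0.50 to 0.08, limma adjusted p = 0.501).

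Egr1, whose protein binds GC-rich sites in many promoters, did not differ by more than its error. It was 10.46, 10.26, 10.35 and 9.80 on B10.D2 donor arrays 1 to 4 and 10.38, 9.98, 10.14 and 10.21 on DBA donor arrays 1 to 4. B10.D2 donor replicate 4 was the lowest of all 8 arrays and B10.D2 donor replicate 1 the highest. The log2 difference was -0.04 (SE 0.15, 95% confidence interval -0.36 to 0.29, limma adjusted p = 0.932). The direction of Egr1 and of Jun depended on single arrays: without B10.D2 donor replicate 1 they were 0.04 and 0.08.

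The feedback gene Dusp1 had the second lowest difference. It was 9.85, 9.63, 9.83 and 9.94 on B10.D2 donor arrays 1 to 4 and 9.35, 9.85, 9.51 and 9.40 on DBA donor arrays 1 to 4. Of the DBA donor arrays 3 lay below all B10.D2 donor arrays, and DBA donor replicate 2 lay among them. The DBA donor mean was 9.53 ± 0.23 and the B10.D2 donor mean 9.82 ± 0.13 (SD, n = 4), which put Dusp1 at -0.29 on the log2 scale (SE 0.12, 95% confidence interval -0.56 to -0.01, limma adjusted p = 0.325, exact permutation p = 0.114). The markers of stroma and endothelium were fixed as a list of 8 genes, and 8 of 8 were tested. Their summed level was 8840 to 9810 with DBA donors and 10686 to 11742 with B10.D2 donors. Of 14 probes 12 were below 0, against 51% of all tested probes. The brightest probes, which weigh most in the sum, were of Acta2 and Cxcl12. With DBA donors first, they read 11.34 to 11.72 and 11.67 to 11.97 for Acta2, and 11.51 to 11.63 and 11.78 to 11.96 for Cxcl12. Cdh5 was also lower on every DBA donor array. Col1a1 (6.95 to 7.45 and 6.86 to 7.22) and Col3a1 (5.43 to 6.05 and 5.31 to 5.73) did not follow. The Pearson correlation of Dusp1 with the summed level was 0.79 over the 8 arrays and 0.62 with each group centred on its mean. For Fos these were 0.45 and -0.64. The part of stroma and endothelium in the Dusp1 and Fos values was not tested.

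Zfp36, the mRNA decay factor, was 10.62, 10.67, 10.73 and 10.27 on B10.D2 donor arrays 1 to 4 and 10.64, 10.23, 10.40 and 10.52 on DBA donor arrays 1 to 4. The lowest array of each group stood at nearly the same level, and the log2 difference was -0.12 (SE 0.13, 95% confidence interval -0.40 to 0.16, limma adjusted p = 0.701). Over the 6 genes the intervals reached from -0.60 to 0.29, so none included a 2-fold difference. The intervals describe normalized values with an offset of 16. Like the p-values, they rest on the spread among these arrays, which may in part be technical.

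**Figure D2:**
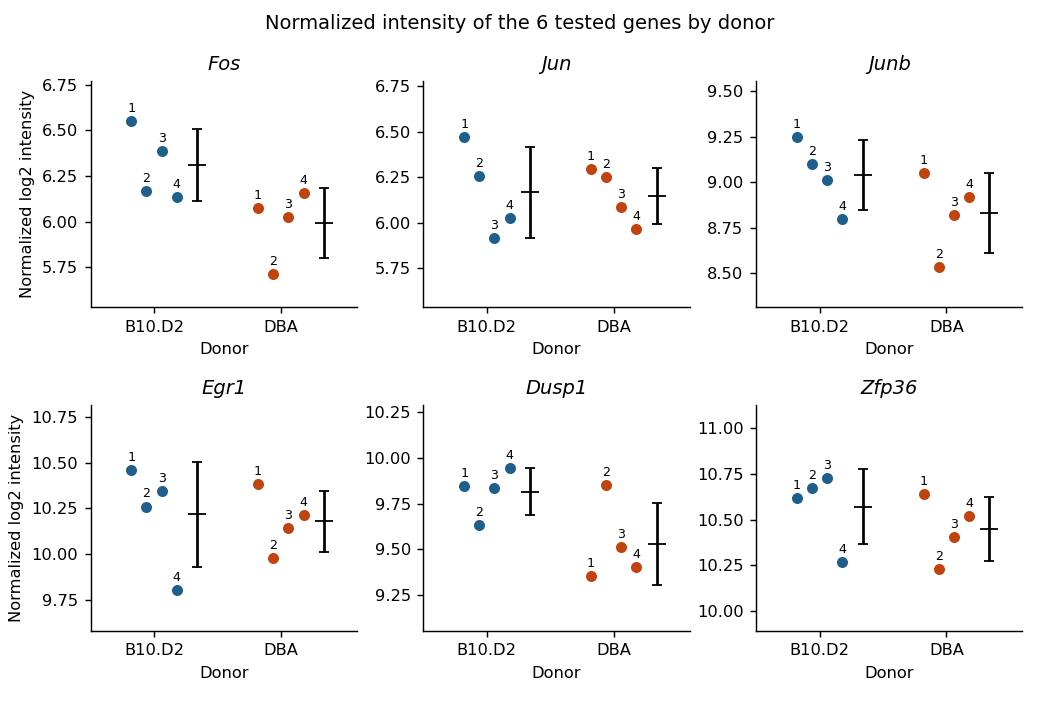
Normalized log2 intensity of the 6 tested genes by donor, a point per array with its replicate number, and the mean with SD as bars (n = 4); each vertical axis spans the same log2 range. The groups overlap in every panel, and Egr1, Junb and Zfp36 are lowest on replicate 4 of B10.D2 donors and replicate 2 of DBA donors within their groups.

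**Figure D3:**
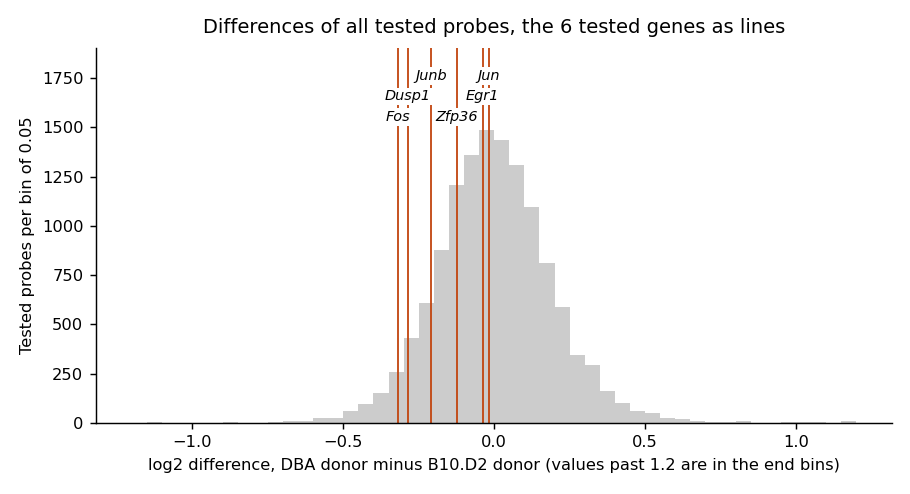
Log2 difference, DBA donor minus B10.D2 donor, of the 12950 tested probes as counts per bin (grey), with the 6 tested genes as lines. All 6 lie below 0, from -0.32 (Fos) to -0.02 (Jun), inside the bulk of the probes, whose 5th and 95th percentiles are -0.30 and 0.31, apart from Fos, which lies just past the lower one.

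Across the 8 arrays some of the genes moved together and others did not. Egr1 and Zfp36 had a Pearson correlation of 0.89, Junb and Zfp36 of 0.86, Fos and Junb of 0.86 and Egr1 and Junb of 0.81. With each group centred on its own mean these were 0.91, 0.84, 0.82 and 0.89. Fos was at 0.62 with Egr1 and 0.69 with Zfp36, and at 0.77 and 0.67 in the centred values. Dusp1 went the other way in the centred values, at -0.80 with Junb, -0.78 with Zfp36, -0.60 with Egr1 and -0.53 with Fos. Without centring Dusp1 was at -0.18 with Junb, -0.32 with Zfp36, -0.38 with Egr1 and 0.17 with Fos. Between donors Dusp1 lay in the same direction as the others, lower with DBA donors. Jun had correlations of 0.05 to 0.37 with the other genes. These correlations describe 8 arrays in which the genes share library, brightness and normalization, and all 15 pairs were computed.

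The genes that moved together were low on the arrays where lymphocyte markers were low. The summed level of the 5 T cell genes with a probe (Cd3d, Cd3e, Cd3g, Lat and Thy1) was lowest on DBA donor replicate 2 (3662) and B10.D2 donor replicate 4 (3885), and 4320 to 5210 on the other 6 arrays. The summed B cell level was lowest on the same 2 arrays, at 11298 and 12701, against 13076 to 16599 on the others. Egr1 (9.98 and 9.80), Junb (8.53 and 8.80) and Zfp36 (10.23 and 10.27) were lowest on these 2 arrays too, whereas Dusp1 was highest of its group on each of them (9.85 and 9.94). Over the 8 arrays the Pearson correlation with the T cell level was 0.99 for Zfp36, 0.89 for Junb, 0.89 for Egr1 and 0.70 for Fos, and 0.12 for Jun and -0.38 for Dusp1. With the B cell level it was 0.98 for Zfp36, 0.89 for Junb, 0.80 for Egr1 and 0.79 for Fos. Each tested gene was set against every marker list, and some other correlations were as large. Egr1 was at -0.83 with the pancreas and fat level. That level was 3162 on B10.D2 donor replicate 4, where Egr1 was lowest, and at most 929.4 on the other arrays. With each group centred on its mean, Junb was at -0.80 with the erythroid level. Dusp1 in centred values was at -0.84 with the T cell level and -0.72 with the macrophage and monocyte level. The part of cell composition in these values was not tested.

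**Figure D4:**
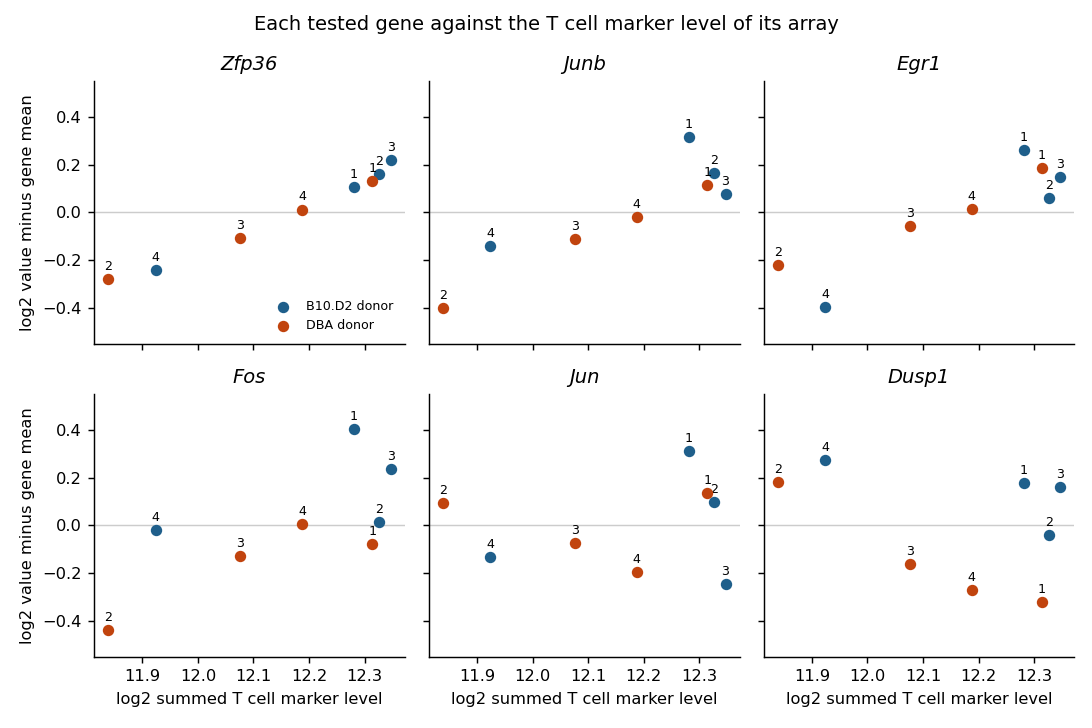
Each tested gene, as its normalized log2 intensity minus the gene's mean over 8 arrays, against the log2 summed level of the 5 T cell marker genes of the same array; colours give the donor and numbers the replicate. Zfp36 and the T cell level order the arrays alike in both donors (r = 0.99), while Dusp1 is high on the 2 arrays with the lowest T cell level.

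The summed levels of other marker lists overlapped between donors, while the stroma sum did not. With DBA donor spleens first, they were 3662 to 5093 and 3885 to 5210 for T cells. B cell sums were 11298 to 14940 and 12701 to 16599, and neutrophil sums 12558 to 22609 and 15366 to 19989. Macrophage and monocyte sums were 8974 to 10348 and 8981 to 11213, and erythroid sums 43128 to 52216 and 45019 to 53668. In the erythroid sum Hba-a1 stood at 14.64 on all 8 arrays after normalization, so that part could not separate the donors. B cell, T cell, red cell and macrophage genes were detected on all arrays. Of the markers with a probe, Pax5 and Fabp4 were detected on no array. Pancreas and fat genes summed to 3162 on B10.D2 donor replicate 4 and to 444.1 to 929.4 on the other 7 arrays, a reading that came with Cela1, a pancreatic elastase, at 10.85 there and 8.30 to 8.94 elsewhere. Adipoq, a gene of fat cells on the same list, was detected on 3 arrays. It was 6.94, 5.37, 8.38 and 4.52 on DBA donor arrays 1 to 4 and 4.41 to 4.52 on B10.D2 donor arrays. The part of these tissues in the donor differences was not tested. Leaving out these low arrays (replicate 4 of B10.D2 donors, replicate 2 of DBA donors), an alternative chosen after the data were seen, the differences were -0.28 for Fos, -0.35 for Dusp1, -0.19 for Junb, -0.15 for Zfp36, -0.11 for Egr1 and -0.10 for Jun, with limma adjusted p of 0.206 to 0.793.

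Among 8910 named genes outside the set, those with the highest Pearson correlation to the mean of the 6 genes over 8 arrays were Inpp5f (0.98), Dbnl (0.97), Irgq (0.96), Zfp362 (0.96) and Ppip5k2 (0.96). For Fos they were Ncf1 (0.99), Gpank1 (0.98), Syp (0.97), Ankrd12 (0.96) and Nfrkb (0.95). With so many genes and 8 arrays, correlations of this size are found by search and are given as a description. Ncf1, which encodes a subunit of the phagocyte NADPH oxidase, differed by -0.39 between donors (limma adjusted p = 0.296).

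Relatives of the 10 genes in the AP-1, EGR, NR4A, IER, DUSP and ZFP36 families did not pass either. Of 19 listed, 16 had a probe and 11 were tested; limma called 0 of 11 (before adjustment, 2 higher and 1 lower had p under 0.05), 4 differences were above and 7 below 0, and the median was -0.07. Before adjustment 7.11% of all tested probes had p under 0.05 with higher values and 7.39% with lower ones. Dusp4, a nuclear phosphatase of ERK and other MAP kinases, had the largest difference of the list, 1.05 (SE 0.32, 95% confidence interval 0.34 to 1.76, limma adjusted p = 0.211). Its values were 6.93, 6.03, 6.34 and 5.11 on B10.D2 donor arrays 1 to 4 and 7.34, 6.83, 7.50 and 6.94 on DBA donor arrays 1 to 4. The groups overlapped only through B10.D2 donor replicate 1. On the other tested Dusp4 probe they did not overlap (0.44, limma adjusted p = 0.127), which held for 8.37% of all tested probes. The first probe differed by 0.71 once replicate 4 of the B10.D2 donors was left out, and by 0.50 without background correction.

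The 1 probe of Nr4a1 was detected on no array, and signals of different probes do not rank their mRNAs. Nr4a2, the orphan receptor closest to Nr4a1, was detected on 7 arrays. It was 5.45, 5.50, 5.19 and 5.09 on B10.D2 donor arrays and 4.98, 4.97, 4.82 and 5.03 on DBA donor arrays. All DBA donor arrays lay below all B10.D2 donor arrays, at -0.36 on the log2 scale (SE 0.11, limma adjusted p = 0.212), but at -0.11 without background correction. Ier3, a stress-induced gene of the IER group, lay the other way: 7.18 to 7.36 on DBA donor arrays and 6.91 to 7.09 on B10.D2 donor arrays, without overlap (0.23, limma adjusted p = 0.270). Ier3 was at 0.14 without background correction and at 0.03 with median scaling. Groups without overlap, as for Nr4a2 and Ier3, were found for 8.37% of all tested probes. Egr2, induced by antigen receptor signals, was at 0.27 (SE 0.20) and Batf, an AP-1 partner in lymphocytes, at 0.45 (SE 0.25), with overlapping groups. Egr2, Batf and Jund were named after their values were seen; Jund, the AP-1 subunit that is present without a stimulus, was at -0.11.

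**Figure D5:**
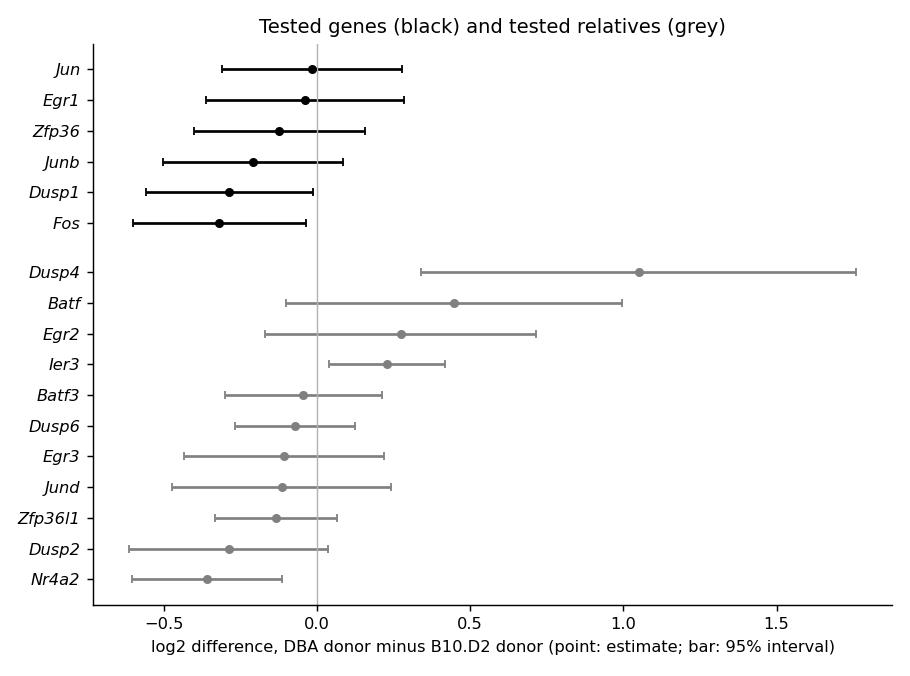
Log2 difference, DBA donor minus B10.D2 donor, with its 95% confidence interval for the 6 tested genes (black) and the 11 tested relatives (grey), from limma on all tested probes. Dusp4 has the largest estimate, 1.05, and none of the 17 passed at an adjusted p under 0.05.

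Other rapidly induced genes were called in 0 of 17 tested cases by limma (2 lower and 0 higher at an unadjusted p under 0.05), with 9 differences above and 8 below 0 and a median of 0.00850. Among all tested probes 7.39% were lower and 7.11% higher at that unadjusted p. Klf2, a transcription factor of lymphocyte quiescence, was at -0.51 (SE 0.15, limma adjusted p = 0.203), with 10.78, 10.94, 10.84 and 10.49 on B10.D2 donor arrays and 10.57, 10.00, 10.07 and 10.39 on DBA donor arrays. Only DBA donor replicate 1 reached into the B10.D2 range. With median scaling, which moved the median of all tested probes to -0.16, Klf2 passed (-0.69, limma adjusted p = 0.0375). Btg1, an inhibitor of proliferation, was at -0.23 and Myc, a growth regulator, at 0.25, with limma adjusted p of 0.312 and 0.389. Btg1 was at -0.17 and 0.04 on its other tested probes.

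The kinases and factors upstream were called in 0 of 11 tested cases by limma (1 lower at an unadjusted p under 0.05), with a median of -0.15. Among all tested probes 7.39% were lower at that unadjusted p. The kinase genes Mapk8, which encodes JNK1, and Mapkapk2, a substrate of p38, were at -0.21 and -0.26, and Creb1, a factor that binds TGACG elements, at -0.16, with limma adjusted p of 0.306, 0.399 and 0.465. Srf itself, named after its value was seen, was at -0.20 (SE 0.14, limma adjusted p = 0.544). The groups overlapped for these genes except for Mapk8, which passed with median scaling (-0.42, limma adjusted p = 0.04998). They did not overlap for 8.37% of all tested probes. On its other tested probe Creb1 was at -0.07.

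Of 10 mRNAs listed as bound by Zfp36, 5 were tested and limma called 0 (2 higher at an unadjusted p under 0.05), with a median of 0.20. Among all tested probes 7.11% were higher at an unadjusted p under 0.05. The chemokine Ccl3 was 6.44, 6.31, 5.96 and 6.13 on B10.D2 donor arrays and 7.03, 6.83, 6.75 and 6.59 on DBA donor arrays. These groups did not overlap (0.59, SE 0.13, limma adjusted p = 0.127), which held for 8.37% of all tested probes. Il10 was at 0.40 and Tnf at -0.19, with limma adjusted p of 0.208 and 0.463. Without background correction Ccl3 was at 0.29, Il10 at 0.12 and Tnf at -0.08, and the median of the list was 0.06. With no filter on dim probes the median was 0.04. With the stricter filter (detected on all arrays at p under 0.01) it was -0.19, so the direction of the median depended on the probes kept. Csf2, Il6, Cxcl2 and Ptgs2 were detected on no array.

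Genes listed with the ATF4 and CHOP stress response, to which Atf3 belongs, had 8 of 9 differences above 0 and a median of 0.21. Of these limma called 0 of 9 (3 higher at an unadjusted p under 0.05). Of all tested probes, 49% had a difference above 0 and 7.11% were higher at an unadjusted p under 0.05. Without background correction the median of the list was 0.10, and Chac1 and Ppp1r15b, named next, were at 0.20 and 0.24. Chac1, a glutathione-degrading enzyme, was at 0.48, Xbp1, a factor of the unfolded protein response and of plasma cells, at 0.52, and Ppp1r15b, a subunit of an eIF2α phosphatase, at 0.42, with limma adjusted p of 0.228, 0.313 and 0.343. Atf4 itself, named after its value was seen, was at 0.12 (SE 0.10). Ddit3, which encodes CHOP and was named in the same way, was at 0.03 (SE 0.13) and on its other probe at -0.13. Trib3, also on the list, was detected on no array. Ppp1r15a, a relative of Ppp1r15b on the list of other rapidly induced genes, was also named after its value was seen. Ppp1r15a was at -0.25 (SE 0.20, limma adjusted p = 0.597). Xbp1 was lowest on B10.D2 donor replicate 4 (11.47 against 12.20 to 12.70 on the other arrays of its group), and without that array and DBA donor replicate 2 it was at 0.30.

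Heat shock genes, which also respond to handling, were called in 0 of 7 tested cases by limma (before adjustment, 2 higher and 1 lower had p under 0.05), with a median of 0.09. Among all tested probes 7.11% were higher and 7.39% lower at that unadjusted p. The mitochondrial chaperones Hspd1 and Hspe1 were at 0.40 and 0.25, and the small heat shock protein gene Hspb1 at -0.39, with limma adjusted p of 0.190, 0.299 and 0.311. The other tested Hspd1 probe was at 0.49 (limma adjusted p = 0.133) without overlap, which held for 8.37% of all tested probes. With median scaling the list's median was -0.00832, and without background correction Hspb1 was at -0.18. The inducible Hspa1a was detected on no array, and Dnajb1, named after its value was seen, was at -0.02 (SE 0.16).

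Dusp1 is also known as a target of glucocorticoids, and of 8 tested genes on the list of glucocorticoid-induced genes limma called 1 lower and 0 higher (4 lower at an unadjusted p under 0.05), with 3 differences above and 5 below 0 and a median of -0.26. Over all tested probes 0.0695% were called, 7.39% were lower at an unadjusted p under 0.05, and the groups did not overlap for 8.37%. The call was Tsc22d3, which encodes the glucocorticoid-induced leucine zipper protein and fell by 0.71 on the log2 scale (SE 0.10, limma adjusted p = 0.0463). Its values were 10.41, 10.62, 10.50 and 10.25 on B10.D2 donor arrays and 9.80, 9.81, 9.61 and 9.74 on DBA donor arrays. Every DBA donor array lay below every B10.D2 donor array; the call was lost when any array but replicate 4 of the B10.D2 donors was left out, and also with no filter on dim probes (limma adjusted p = 0.0715), with the stricter filter (0.0952) and with probes averaged per gene (-0.56, 0.102). Its limma adjusted p ran from 0.00923 to 0.188 over the alternatives, and the other Tsc22d3 probe was at -0.42 (limma adjusted p = 0.222). Sgk1 (-0.47), Per1 (-0.40) and Ddit4 (-0.51), other responsive genes named after their values were seen, did not pass, with limma adjusted p of 0.204, 0.242 and 0.218, and Klf9 was at -0.12. Above 0 were Fkbp5 at 0.05 and the metallothionein genes Mt1 at 0.26 and Mt2 at 0.23, with limma adjusted p of 0.883, 0.638 and 0.640. Dusp1, at -0.29, is not on that list.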

How the data were processed

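The data were intensities on 8 Illumina MouseRef-8 v2.0 arrays, 4 per donor strain, grouped by sample titles. Per the file headers, the deposited table gives each probe's mean bead intensity on a linear scale and a detection p-value against the array's negative controls. The authors' processed table holds linear intensity values with array medians of 13.9 to 14 and a minimum of -16.5; no source used here gives its steps. The submitters' processing notes name GenomeStudio. Probes were named from the platform annotation (1719 of 25697 are unnamed here), and 23962 probes matched a gene of build GRCm38.p6, with 0 symbols updated. Promoter sequences are from RefSeq.

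Intensities were corrected by normexp with detection p-values (offset 16), quantile-normalized and put on a log2 scale (neqc steps, limma 3.58.1, R 4.3.3). Probes detected (p under 0.05) on 4 or more of 8 arrays were tested by lmFit and eBayes (two-sided, DBA donor minus B10.D2 donor), adjusted by Benjamini-Hochberg over 12950 probes. The probe with the highest mean stands for a gene. The fit was tested on simulated data, and precision is limited by the number of arrays. Named were all 10 genes, of each list up to 3 that passed or the 3 with the smallest p, and the 5 genes most correlated with the set and with Fos. The genes and lists were chosen with earlier results of these data known. Summed marker levels add normalized linear intensities of all probes of a list. Plots used matplotlib 3.10.9 (Python 3.11.15).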

Additional observations from a re-analysis of the deposited data

Results flagged for a closer look

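Among 50 groups of 4 arrays (2 donors for each tested gene of the set and each named related gene), 0 had an extreme array by Dixon's gap test; about 2.5 would be flagged by chance.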

How the results depend on the processing

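The 6 tested genes of the set passed in none of the settings tried, which covered background correction, offset, normalization, source of values, filter, probe summary, variance model, weights, replicate block and the loss of arrays. Fos, Junb, Dusp1 and Zfp36 kept differences below 0 in all of them. With 1 array left out Fos ran from -0.37 to -0.23, Dusp1 from -0.39 to -0.23, Junb from -0.29 to -0.11, Zfp36 from -0.23 to -0.05, Egr1 from -0.18 to 0.04 and Jun from -0.10 to 0.08. Egr1 was above 0 without replicate 1 (0.0433) or 3 (0.00501) of the B10.D2 donors or replicate 2 (0.03) of the DBA donors, and Jun without replicate 1 (0.0841) or 2 (0.01) of the B10.D2 donors or replicate 3 (0.00445) or 4 (0.04) of the DBA donors. Median scaling moved the median of all tested probes by -0.16. Its differences were -0.46 for Fos, -0.48 for Dusp1, -0.43 for Junb, -0.31 for Zfp36, -0.24 for Egr1 and -0.17 for Jun, with limma adjusted p of 0.0521 to 0.428. With the shift taken off, which was not tested, they were -0.30, -0.32, -0.27, -0.15, -0.08 and -0.00762. Klf2 and Mapk8 gained a call in that setting alone. Without background correction Fos was at -0.14. Over all probes the limma count of 9 (8 higher, 1 lower) became 625 with median scaling (27 higher, 598 lower) and 45 with array weights (25 higher, 20 lower). It was 0 with no filter and with the stricter filter (2758 and 1589 at an unadjusted p under 0.05), and 0 to 11 with 1 array left out. With the replicate block it was 7, the adjusted p of Fos was 0.325 and of Dusp1 0.440, and no call among the 6 tested genes changed, while Tsc22d3 lost its call (0.160). Same-numbered arrays deviated together in 1 of 4 pairs only (correlation over 0.1), so the numbers were not taken as pairs. The cause of these shifts was not tested. Low signal over background limits Fos, Jun, the 4 untested genes and, among related genes, dim ones whose difference shrank without background correction, such as Nr4a2 (-0.11), Il10 (0.12), Creb1 (-0.05) and Myc (0.07).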
